A study of Rattus norvegicus with 3 samples.

Results

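The PDGF, FGF and HGF ligands and receptors considered here are 10 genes, namely the ligands Pdgfa, Pdgfb, Fgf2, Fgf7 and Hgf and the receptors Pdgfra, Pdgfrb, Fgfr1, Fgfr2 and Met. They were taken by name, through the RefSeq accession of each probe, out of 13295 rat genes named on the array, and all 10 had at least 1 probe. RNA of 3 cultures of the F344 strain was compared, each on 1 whole rat genome array of Agilent with Cy3-labeled cRNA. COS1NR is an osteosarcoma line and MFH1NR a malignant fibrous histiocytoma (MFH) line. Both were established from tumors induced with 4-HAQO and, by the methods of the study, carry p53 mutations. The mesenchymal stem cells (MSCs) were grown on plastic from femur bone marrow, were not sorted by surface markers, and received medium with more serum than the sarcoma lines. No group had a second array, so no difference could be tested against the spread between cultures, and every comparison is a description of 3 arrays.

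These genes belong to receptor tyrosine kinase systems, in which a secreted growth factor joins receptor molecules in pairs, the receptors phosphorylate each other, and adaptor proteins pass the signal on to the Ras-ERK and PI3K pathways. PDGFs drive growth and migration of mesenchymal cells, and serum is a rich source of them. FGF2 acts through most FGF receptors, whereas FGF7 is made by stromal cells and acts on the epithelial splice form of FGFR2. HGF is a stromal factor whose only known receptor is MET.

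Of the 10 genes, 6 had a signal well above background on all 3 arrays by the software's own call, against 7927 of the 13295 genes in all, and 9 on at least 1 array, against 10005. Intensities below are the processed signals as deposited. Ratios were formed after each array was scaled to the 75th percentile of its own spots, an intensity of 589 (MSCs), 774 (COS1NR) or 994 (MFH1NR). A gene with several probes was represented by the probe of highest mean log2 intensity. Where a gene was not well above background on 1 of the compared arrays, the ratio is a bound set by the lowest signal called well above background there (18.0 for MSCs, 29.4 for COS1NR, 30.1 for MFH1NR). The 2-fold threshold is a working limit and not a test.

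Both sarcoma arrays shared a slide while the MSC array had its own, and a ratio to MSCs therefore also compares slides, which cannot be told apart from the cells. Marker genes of several cell types were read, and whether their RNA came from other cells or from the MSCs was not tested. All 15 macrophage markers were well above background on the MSC array, against 8 in COS1NR and 7 in MFH1NR. Their summed scaled level was 193, 13.0 and 5.24 in this order. Markers of mural cells, the contractile cells around vessels, were above background for 7 of 7 genes in MSCs and 4 of 7 in each sarcoma, with summed levels of 183, 1.96 and 6.84. Among them Mcam was not lower in MFH1NR, with a log2 ratio to MSCs of 0.21. Endothelial markers were above background for 4, 2 and 1 of 7 genes in this order, with summed levels of 1.12, 0.212 and 0.138, and epithelial markers for 5, 3 and 3 of 9, with 1.27, 0.397 and 0.365. Of the epithelial genes, 2 of 6 tested (Krt8 and Krt18) were at least 2-fold lower in each line, with log2 bounds from -3.59 to -4.18. Another 1 (Cldn4) was higher, 2.84-fold and 2.33-fold, though under 2-fold with normexp. The share of all genes so called was 20.0% lower and 20.6% higher in COS1NR, and 21.6% and 19.3% in MFH1NR. The marker Epcam was not well above background on any array. Summed in the same order, 9 fibroblast markers had levels of 1286, 350.4 and 317, with S100a4 and Col1a1 the main part in COS1NR, and 8 proliferation markers 40.04, 191 and 176. Of 7 osteoblast markers, 5 were above background in MSCs, 4 in the osteosarcoma line and 5 in MFH1NR, with summed levels of 75.6, 30.8 and 153. The last sum was nearly all Spp1. Against MSCs, 4 of 5 tested were at least 2-fold lower in COS1NR, against 20.0% of all genes, and 0 higher, against 20.6%. In MFH1NR, 3 of 6 were lower (Bglap, Ibsp and Dmp1), against 21.6% of all genes. There 2 were higher, against 19.3%, namely Spp1 and the osteoblast factor Sp7, the latter above background in MFH1NR alone. In bulk RNA, fewer cells of a type and less RNA per cell cannot be told apart, and the part of such cells in the ratios below was not tested.

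The promoters of the 4 genes that differed most between any arrays, with a sequence in the RefSeq table of the GRCr8 assembly, are shown to compare their base composition, since 3 of them (Fgfr2, Fgf7 and Pdgfa) were lower in both sarcomas while Pdgfra was not. Each run is the 250 bases before the annotated start, on the gene's strand. Capitals mark matches, on either strand, to the GC box GGGCGG, the CCAAT box or the TATA box with the letters TATAAA. They also mark the letters TGANTCA, a loose form of the AP-1 site with any base in the middle. None of these matches overlap. The windows lie at chr1:194280915-194281164 on the minus strand for Fgfr2, chr3:133735377-133735626 on the plus strand for Fgf7, chr12:20759116-20759365 on the plus strand for Pdgfa and chr14:33408517-33408766 on the minus strand for Pdgfra.
Fgfr2: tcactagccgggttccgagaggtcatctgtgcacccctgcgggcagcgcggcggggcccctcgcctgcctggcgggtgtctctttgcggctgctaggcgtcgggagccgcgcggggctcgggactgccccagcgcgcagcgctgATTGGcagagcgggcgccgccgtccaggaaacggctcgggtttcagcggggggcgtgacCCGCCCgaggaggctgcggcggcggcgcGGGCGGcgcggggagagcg
Fgf7: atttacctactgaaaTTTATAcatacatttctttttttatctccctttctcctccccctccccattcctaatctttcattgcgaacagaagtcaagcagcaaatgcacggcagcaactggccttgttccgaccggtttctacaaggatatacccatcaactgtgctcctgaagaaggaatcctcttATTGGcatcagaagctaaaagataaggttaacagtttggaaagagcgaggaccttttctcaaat
Pdgfa: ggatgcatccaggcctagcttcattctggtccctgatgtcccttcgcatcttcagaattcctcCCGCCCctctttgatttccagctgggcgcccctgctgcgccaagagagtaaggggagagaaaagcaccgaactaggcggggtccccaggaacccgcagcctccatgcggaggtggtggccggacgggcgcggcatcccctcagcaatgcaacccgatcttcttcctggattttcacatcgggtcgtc
Pdgfra: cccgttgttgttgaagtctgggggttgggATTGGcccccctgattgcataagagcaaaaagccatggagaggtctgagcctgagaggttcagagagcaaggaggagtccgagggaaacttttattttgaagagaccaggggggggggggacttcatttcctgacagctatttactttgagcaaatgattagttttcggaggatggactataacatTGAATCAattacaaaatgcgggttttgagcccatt

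Of the 5 genes lower in both sarcomas, these 3 had a promoter in the table. That of Fgfr2 had a GC content of 76.8% with 37 CpG dinucleotides, 2 GC boxes and 1 CCAAT match, and that of Pdgfa 60.8% with 15 CpGs and 1 GC box. That of Fgf7 had 41.6% with 5 CpGs, no GC box, and 1 match each to the CCAAT and TATA letters. The Pdgfra window, at 47.2% with 4 CpGs, held 1 CCAAT match and 1 match to the loose AP-1 form, with A in the middle. Over 33469 rat promoters, the median GC content was 51.2% and the median number of CpGs was 5. A GC box was present in 30.5% of them, a CCAAT box in 34.0%, a TATA box in 12.9% and the loose AP-1 form in 6.34%. A match is a description of the letters, and no binding was measured. Promoters of Pdgfb, Fgf2, Hgf and Met were also matched, which gave 8 of the 10 genes, and those of Pdgfrb and Fgfr1 were not.

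Against MSCs, the genes were mostly lower in the sarcomas and none was at least 2-fold higher. In COS1NR, 7 of the 10 were at least 2-fold lower, against 20.0% of the 9705 genes above background on either array. These were Pdgfa, Pdgfra, Pdgfrb, Fgf2, Fgf7, Fgfr1 and Fgfr2. None was at least 2-fold higher, against 20.6% of all genes. With both arrays required to be well above background, 7 of 7 measured members were lower, against 16.0% of 8299 genes, and 0 higher, against 20.9%. In MFH1NR, 5 of the 10 were at least 2-fold lower, namely Pdgfa, Pdgfrb, Fgf7, Fgfr1 and Fgfr2, against 21.6% of 9818 genes, and none was higher, against 19.3%. With both arrays above background, 4 of 6 members were lower, against 16.7% of 8308 genes, and 0 higher, against 19.2%. The same 5 were lower by as much in both sarcomas at once, against 12.9% of 10005 genes, in comparisons that share the MSC array, and 0 were higher in both, against 10.8%. Over the 7 members measured on both arrays, the median log2 ratio of COS1NR to MSCs was -3.25, against 0.18 over all genes so measured. Over the 6 members measured in MFH1NR and MSCs it was -2.95, against 0.07. The split of all genes depended on the scaling. Higher genes were 50.8% of those 2-fold apart in COS1NR and 47.2% in MFH1NR, which became 68.8% and 76.1% without scaling and 36.8% and 69.1% with spike-in scaling. Under both, the same 7 and 5 members were at least 2-fold lower. Without scaling, the log2 ratios of MFH1NR to MSCs were -4.21 for Pdgfa, -2.13 for Pdgfrb, -2.26 for Fgfr1 and -6.07 for Fgfr2, each less far from 0 than the values given below.

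**Figure D1:**
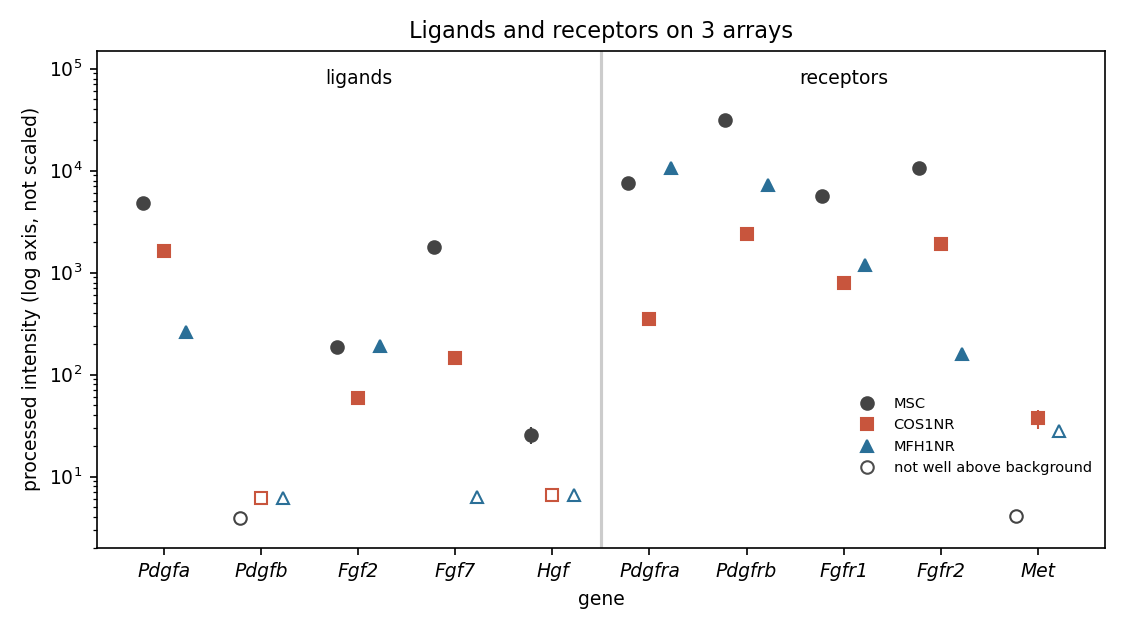
Processed intensity (log axis, not scaled between arrays) of the 5 ligands and 5 receptors on the arrays of MSCs, COS1NR and MFH1NR, 1 array each. Bars are the software's error of the spot, mostly smaller than the symbols, and open symbols were not well above background. For Pdgfra only COS1NR is far below the others, while Fgfr2 and Pdgfa step down from MSCs over COS1NR to MFH1NR.

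PDGF-A, a ligand that acts through PDGF receptor alpha, was lower in both lines and lowest in MFH1NR. The Pdgfa probe read 4785 on the MSC array, 1613 on that of COS1NR and 259 on that of MFH1NR. It was 3.90-fold lower in COS1NR than in MSCs, with a log2 ratio of -1.96, and 31.2-fold lower in MFH1NR, with a log2 ratio of -4.96. The software's error of such a log2 ratio was 0.20 to 0.26 over the members measured on both arrays, and it covers the spot but neither culture nor labeling. Of all genes with a value or bound, 2.87% were as low or lower in MFH1NR relative to MSCs. Pdgfb, which encodes the PDGF-B chain that binds both receptors, was not well above background on any array, with signals of 3.96 (MSCs), 6.11 (COS1NR) and 6.15 (MFH1NR), so no ratio can be given.

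The receptors of the PDGF family separated the sarcomas. Pdgfra, the receptor for PDGF-A, read 353 in COS1NR, against 7621 in MSCs and 10693 in MFH1NR. It was thus low in the osteosarcoma line alone, 28.3-fold below MSCs with a log2 ratio of -4.82, and 2.26% of genes were as low or lower there. In MFH1NR its log2 ratio to MSCs was -0.27, which turned to 0.49 without scaling and to 0.25 with spike-in scaling, so no direction can be given. Pdgfrb, the receptor for PDGF-B that marks mural cells and fibroblasts, read 2374 in COS1NR and 7201 in MFH1NR, against 31530 in MSCs. Both sarcomas lay below MSCs, 17.4-fold in COS1NR and 7.39-fold in MFH1NR, with log2 ratios of -4.12 and -2.89. The mural marker list, which does not hold Pdgfrb, had medians of -5.24 for COS1NR and -3.66 for MFH1NR as log2 ratios to MSCs, and the fibroblast list -3.45 and -0.98. The part of either in the ratio of Pdgfrb was not tested.

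The FGF ligands differed in which line was lowest. FGF7, also known as keratinocyte growth factor, was high in MSCs and not detected in MFH1NR. Fgf7 had an intensity of 1766 in MSCs and 147 in COS1NR, and in MFH1NR it read 6.26, not well above background. Relative to MSCs it was 15.8-fold lower in COS1NR, and in MFH1NR the decrease was at least 99.1-fold, a log2 bound of -6.63 that became -5.88 without scaling and -5.28 with normexp. FGF2, a broadly acting mitogen of mesenchymal cells, was low in COS1NR only. Its probe was printed 10 times on each array, which gives a spread over spots, as it does for Hgf and for no other member. The kept spots of Fgf2 ran from 176 to 203 in MSCs (n = 10), from 54.1 to 63.5 in COS1NR (n = 9) and from 182 to 204 in MFH1NR (n = 9), with means of 186, 58.9 and 191 and an SD of 0.07, 0.07 and 0.05 in log2. The COS1NR spots lay below all others. The log2 ratio of COS1NR to MSCs was -2.05 with a standard error of 0.03 over spots, which measures the print and not the culture, and -1.38 with normexp. In MFH1NR the log2 ratio was -0.72 after scaling, where all kept spots of MFH1NR lay below those of MSCs. Without scaling it was 0.04, and the spots of MFH1NR and MSCs overlap.

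**Figure D2:**
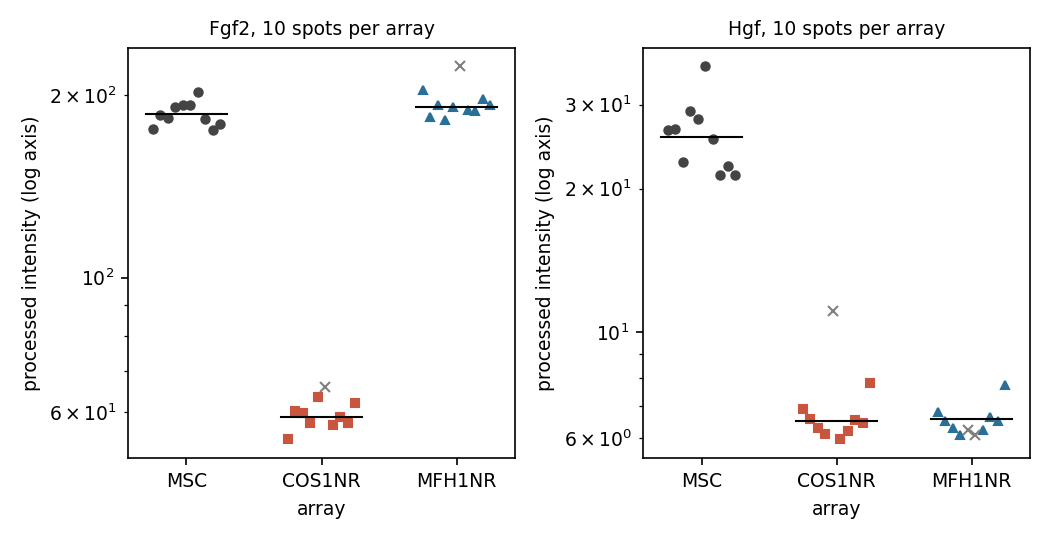
Processed intensity (log axis) of each printed spot of the Fgf2 probe (left) and the Hgf probe (right) on the 3 arrays, with crosses for spots called outliers and left out and a line at the mean of the kept spots on the log2 scale. The COS1NR spots of Fgf2, from 54.1 to 63.5, lie below those of the other arrays, and the Hgf spots of both sarcomas lie below those of MSCs.

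Nudt6, a gene that overlaps Fgf2 on the opposite strand, was 2.10-fold higher in COS1NR than in MSCs, and its log2 ratio in MFH1NR was 0.21. The former was under 2-fold with spike-in scaling, at 0.80 in log2, and with a normexp background correction, at 0.88. Which strand the Fgf2 probe reads was not checked.

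Fgfr1 was lower in both sarcomas, and for Fgfr2 the result depended on the probe. Fgfr1, the main FGF receptor of mesenchymal cells, read 785 in COS1NR and 1190 in MFH1NR, against 5703 in MSCs. It was 9.54-fold lower in COS1NR than in MSCs and 8.09-fold lower in MFH1NR, with log2 ratios of -3.25 and -3.02, so that the sarcomas were close to each other. Fgfr2, which binds FGF7 or FGF2 according to its splice form, was measured by 4 probes, 3 for 1 RefSeq transcript and 1 for another. The brightest probe stepped down from 10646 in MSCs to 1923 in COS1NR and to 159 in MFH1NR. By this probe Fgfr2 was 7.27-fold lower in COS1NR and 113-fold lower in MFH1NR, with log2 ratios of -2.86 and -6.82, and 1.18% of genes were as low or lower in MFH1NR.

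The other probes of Fgfr2 were dim and did not all follow the brightest one. The second probe was dimmest in MSCs, at 42.0 against 93.4 in COS1NR and 70.6 in MFH1NR, with log2 ratios to MSCs of 0.76 in COS1NR (software error 0.28) and -0.00 in MFH1NR (software error 0.30). The third probe followed the brightest one, at 172 in MSCs against 38.2 in COS1NR and 18.2 in MFH1NR, the last not well above background. Its decrease was 5.93-fold for COS1NR, with a bound of 9.68-fold for MFH1NR. The fourth probe, of the other transcript, was well above background in MSCs alone, at 30.5, which bounds the decrease at 1.36-fold for COS1NR and at 1.71-fold for MFH1NR. Between the first and second probe of a gene, the log2 ratio of COS1NR to MSCs differed by a median of 0.28 and in 1 gene of 10 by more than 0.93, over 1980 genes, and that of MFH1NR to MSCs by a median of 0.32 over 1979. Which exons or splice forms the probes read was not resolved here, so the decrease of Fgfr2 holds for the brightest and the third probe and not for the second.

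**Figure D3:**
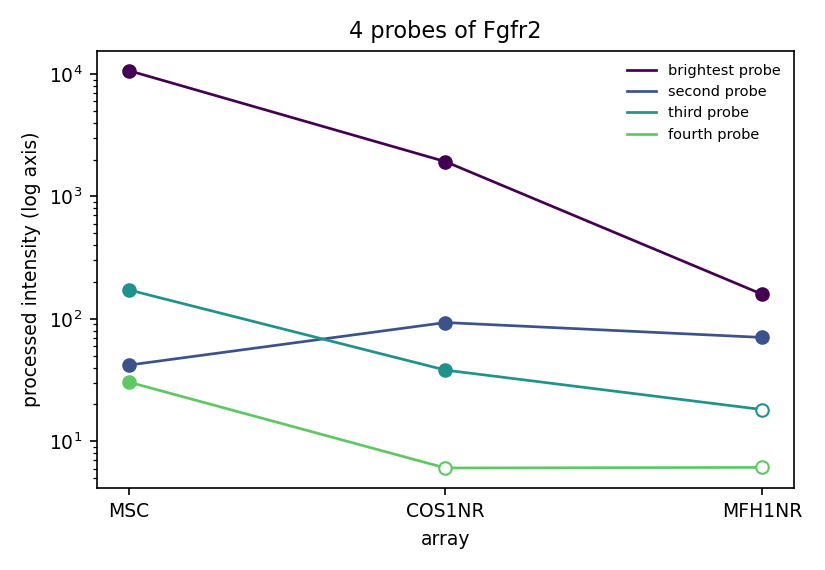
Processed intensity (log axis, not scaled between arrays) of the 4 probes of Fgfr2 on the 3 arrays, with lines joining the values of a probe and open symbols where it was not well above background. The brightest probe steps down from 10646 to 159, while the second lies at 42.0, 93.4 and 70.6.

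HGF and its receptor were near or below the background limit on every array. Hgf, also printed 10 times, had a mean intensity of 25.6 in MSCs, with 9 of 10 spots well above background and a range from 21.3 to 36.1. In COS1NR it read 6.52, with 0 of 9 kept spots above background, and in MFH1NR 6.58, with 0 of 8. The spots of MSCs lay above those of both sarcomas. The background limit bounds the decrease of COS1NR only at 1.15-fold and that of MFH1NR at 1.44-fold, and without scaling no bound was left. Met, the HGF receptor, had 37.3 in COS1NR, well above background by the software, 4.08 in MSCs and 28.2 in MFH1NR, neither of which was. It was at least 1.58-fold higher in COS1NR than in MSCs and at least 1.60-fold higher than in MFH1NR, both under the 2-fold threshold, and MFH1NR lay just under its limit of 30.1. As log2 ratios, the bound against MSCs was 0.66 and ran from 0.09 with normexp to 1.05 without scaling. The bound between the lines went from -0.67 to -0.31 without scaling, and with spike-in scaling there was none. A level of these genes below the limit of the array was not detectable, which does not show that it is absent.

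**Figure D4:**
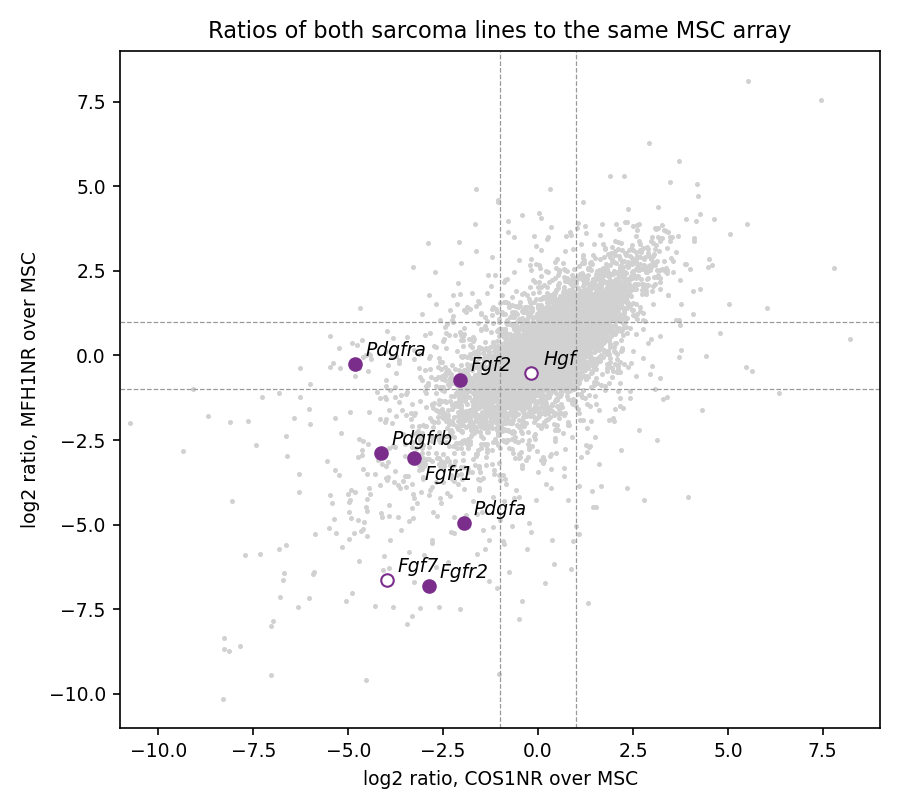
Log2 ratio of COS1NR to MSCs (horizontal) against that of MFH1NR to MSCs (vertical) for 7927 genes measured on all arrays (grey) and the 8 members with a value or bound in both (purple, open where a ratio is a bound). Dashed lines mark 2-fold. The axes share the MSC array, and the members lie to the lower left, with Pdgfra at -4.82 and -0.27 and Fgfr2 at -2.86 and -6.82.

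The sarcoma lines shared a slide, so their comparison is free of the slide difference. Here the members went both ways. Of the 10, 3 were at least 2-fold higher in MFH1NR (Pdgfra, Pdgfrb and Fgf2), against 12.4% of 9417 genes, and 3 were at least 2-fold lower (Pdgfa, Fgf7 and Fgfr2), against 15.1%. With both arrays above background, 3 of 6 members were higher, against 9.86% of 8177 genes, and 2 lower, against 12.1%. Higher genes were 45.2% of all genes 2-fold apart, and 66.1% without scaling and 83.1% with spike-in scaling. Pdgfra was 23.5-fold higher in MFH1NR than in COS1NR, with a log2 ratio of 4.56, and 1.29% of genes were as high or higher. Of the 9 fibroblast markers, 6 were at least 2-fold higher in MFH1NR and 2 lower, with a median log2 ratio of 1.86, and their part in the ratios of Pdgfra and Pdgfrb was not tested. Pdgfrb was 2.36-fold higher and Fgf2 2.53-fold higher, with log2 ratios of 1.24 and 1.34, the latter with a standard error of 0.03 over spots. With the normexp correction, Fgf2 was under 2-fold, at 0.74. On the other side, Fgfr2 was 15.5-fold lower by its brightest probe, with a log2 ratio of -3.96, and under 2-fold lower by its second, at -0.77. Pdgfa was 7.999-fold lower in MFH1NR, and Fgf7 at least 6.28-fold lower, a log2 bound of -2.65 that became -1.86 with spike-in scaling and -1.77 with normexp. With spike-in scaling the log2 ratios of MFH1NR to COS1NR were 5.35 for Pdgfra, 2.03 for Pdgfrb, 2.13 for Fgf2, -2.21 for Pdgfa and -3.17 for Fgfr2. Fgfr1 was within 2-fold, at 0.24, and passed it with spike-in scaling only, at 1.03.

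Read by pairs, MSCs had both PDGF-A and its receptor well above background and high relative to the sarcomas, with the exception of Pdgfra in MFH1NR. In COS1NR both Pdgfa and Pdgfra were lower, and in MFH1NR only the ligand was. Fgf7 and the brightest probe of Fgfr2 were lower in both lines and lower in MFH1NR than in COS1NR. Whether that probe reads the splice form on which FGF7 acts was not resolved. Hgf and Met were not well above background together on any array, Hgf being so in MSCs alone and Met in COS1NR alone. No pair could be followed for PDGF-B, since its gene gave no signal above background.

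**Figure D5:**
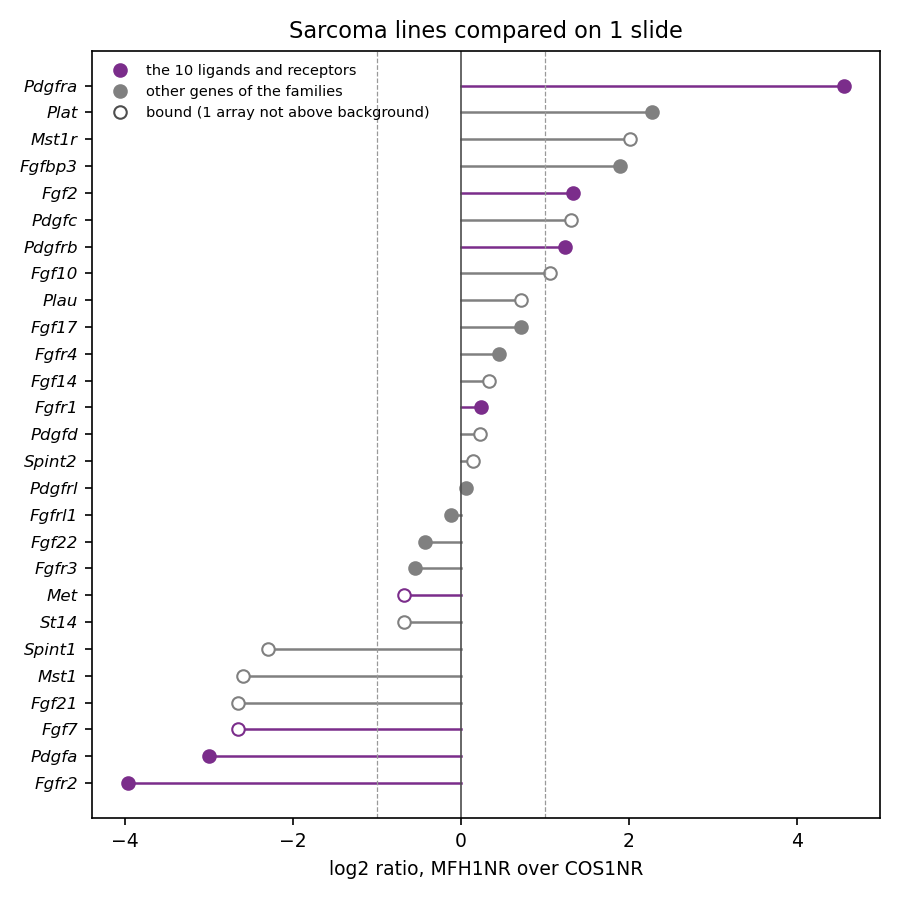
Log2 ratio of MFH1NR to COS1NR, which lay on the same slide, for the 10 ligands and receptors (purple) and other genes of their families (grey) with a value or bound. Open symbols are bounds and dashed lines mark 2-fold. Pdgfra stands at 4.56 and Fgfr2 at -3.96, at the ends of the order.

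Other genes of the families were measured as lists of known members. Of the other PDGF genes, Pdgfrl, a receptor-like gene without a kinase domain, was 13.9-fold lower in COS1NR than in MSCs and 13.3-fold lower in MFH1NR, and its second probe gave a decrease in both. Pdgfc, a further ligand of PDGF receptor alpha, was above background in MFH1NR alone, exceeding MSCs by at least 3.07-fold and COS1NR by at least 2.47-fold. With normexp, both bounds of Pdgfc were under 2-fold, at log2 ratios of 0.29 and 0.36. Pdgfd, which binds PDGF receptor beta, had a log2 ratio of 0.15 in MFH1NR to MSCs and was not well above background in COS1NR.

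Of 19 other FGF ligands named on the array, 6 were well above background on at least 1 array, against 10005 of 13295 genes in all. In COS1NR, 2 of 5 tested were at least 2-fold higher than in MSCs and 0 lower, and in MFH1NR again 2 of 5 and 0. Of all genes, 20.6% were higher and 20.0% lower in COS1NR, and 19.3% and 21.6% in MFH1NR. Fgf17, related to FGF8, was 2.68-fold higher in COS1NR and 4.40-fold higher in MFH1NR. Fgf21, an endocrine FGF, was above background in COS1NR alone, exceeding MSCs by at least 6.21-fold. Fgf10, a ligand of the same splice form of FGFR2 as FGF7, was 2.02-fold higher in MFH1NR than in MSCs and at least 2.08-fold higher than in COS1NR. The signals of these ligands were low, at most 177 on any array, and with normexp the ratios of Fgf17 to MSCs became 0.42 and 0.74 in log2 and those of Fgf10 in MFH1NR 0.19 to MSCs and 0.85 to COS1NR.

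Of the other FGF receptors and binding partners, 4 of 6 were above background in each culture. Fgfr3 was 2.13-fold lower in COS1NR than in MSCs and 3.10-fold lower in MFH1NR, but under 2-fold in both without scaling (log2 ratios -0.70 and -0.88) and in COS1NR with median scaling or normexp, at -0.93 each. Fgfrl1, an FGF receptor without a kinase domain, stayed near MSCs in both lines, at log2 ratios of 0.13 and 0.02, which are smaller than probes of 1 gene differed at the median. Fgfbp3, a secreted FGF binding protein, was 3.17-fold higher in MFH1NR than in MSCs and 3.72-fold higher than in COS1NR.

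The list around HGF holds its activating proteases, their inhibitors and the related MST1 branch. In each line, 5 of 6 tested were at least 2-fold lower than in MSCs, against 20.0% of all genes in COS1NR and 21.6% in MFH1NR, and 1 was higher, against 20.6% and 19.3%. Without scaling 3 were lower in COS1NR, against 14.8% of all genes. Plau, the protease urokinase, which can cleave pro-HGF, read 10699.9 in MSCs, 62.1 in MFH1NR and, not well above background, 16.7 in COS1NR. Its decrease was 291-fold in MFH1NR and at least 478-fold in COS1NR. Plat, the tissue-type plasminogen activator, was 17.8-fold lower in COS1NR and 3.67-fold lower in MFH1NR. Mst1, the ligand of MST1R, was 2.59-fold lower in COS1NR, a difference under 2-fold without scaling at a log2 ratio of -0.98, and in MFH1NR it was at least 15.6-fold lower. The inhibitors of HGF activation diverged. Spint1 was above background in COS1NR alone, at least 4.85-fold higher than in MSCs, whereas Spint2 was lower in both lines, by at least 5.37-fold in COS1NR and by 4.87-fold in MFH1NR. Mst1r, a receptor related to MET, was above background in MFH1NR alone, exceeding MSCs by at least 5.03-fold and COS1NR by at least 4.05-fold, the former under 2-fold with normexp at a log2 ratio of 0.79.

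The adaptors and proximal transducers were not lower as a list. Of 24 tested, 3 were at least 2-fold higher in COS1NR than in MSCs, against 20.6% of all genes, and 5 lower, against 20.0%, with a median log2 ratio of -0.01 against 0.11 over all genes. In MFH1NR, 3 were higher, against 19.3%, and 0 lower, against 21.6%, with a median of 0.22 against 0.02. These counts moved with the scaling. Without it, 5 were higher in COS1NR, against 32.5% of all genes, and 2 lower, against 14.8%. In MFH1NR, 12 were higher without it, against 41.3%, and 9 with spike-in scaling, against 33.5%. Between the lines, 0 were lower in MFH1NR, against 15.1%, and 5 were higher, against 12.4%, namely Frs3, Gab1, Sos1, Cblb and Crkl. With spike-in scaling 10 were higher, against 34.9% of all genes. Gab1, a docking protein of MET, was 10.9-fold higher in MFH1NR than in MSCs and 9.30-fold higher than in COS1NR, and its second probe gave log2 ratios of 2.75 and 2.63. Sos1, the exchange factor that loads Ras with GTP, was 6.35-fold and 7.32-fold higher in MFH1NR, with 2.24 and 2.89 in log2 by its second probe. Cblb, a ubiquitin ligase that helps remove active receptors, was 4.10-fold lower in COS1NR than in MSCs and had a log2 ratio of 0.59 in MFH1NR, which was 1.35 without scaling and 1.11 with spike-in scaling. Crkl was 3.22-fold lower in COS1NR and had a log2 ratio of 0.11 in MFH1NR. Frs3, an FGF receptor substrate, was at least 2.81-fold and at least 6.39-fold higher in COS1NR and MFH1NR than in MSCs, the former under 2-fold with normexp at 0.50 in log2, as was its ratio between the lines, at 0.74. Pik3r1, the regulatory subunit of PI3K, was 2.52-fold higher in COS1NR, likewise under 2-fold with normexp at 0.49, and had a log2 ratio of 0.55 in MFH1NR, which was 1.31 without scaling, 1.07 with spike-in scaling and -0.08 with normexp.

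Genes that ERK signaling is known to induce were mostly lower in COS1NR. In MFH1NR their count depended on the scaling, while their median stayed below that of all genes. The exceptions in COS1NR were Etv4, Fosl1 and Etv5, the last within 2-fold at a log2 ratio of 0.28. The list held 15 genes, of which 11 were named on the array, and Dusp6, Spry1, Il17rd and Egr1 were not. Of 9 tested, 6 were at least 2-fold lower in COS1NR than in MSCs, against 20.0% of all genes, and 2 higher, against 20.6%, with a median log2 ratio of -1.72 against 0.11. Of 10 tested in MFH1NR, 7 were lower, against 21.6%, and 0 higher, against 19.3%, with a median of -1.47 against 0.02. Without scaling, 3 were lower there (Dusp5, Phlda1 and Ier3), against 13.0% of all genes, and 1 higher (Etv4), against 41.3%. The median was then -0.71, against 0.79 over all genes. With spike-in scaling 4 were lower (the same 3 and Spry4) and 1 higher, the latter against 33.5% of all genes. The median was -0.95 there, against 0.55. Lower in both were Spred1, an inhibitor of the Ras-ERK pathway, with log2 ratios of -2.02 and -1.51, the latter under 2-fold without scaling and with spike-in scaling, Dusp5, an ERK phosphatase, with -3.13 and -2.41, Ier3 with -3.22 and -3.11, Phlda1 with -1.42 and -2.62, and Spry4, a feedback inhibitor of these receptors, with -2.77 and -1.56. Spry4 in MFH1NR was under 2-fold without scaling, at -0.80. Etv4, a transcription factor, was 13.4-fold higher in COS1NR, with a log2 ratio of 0.90 in MFH1NR, and its second probe gave 3.37 and 0.45. In MFH1NR the first probe passed 2-fold without scaling, at 1.66, with median scaling, at 1.12, and with spike-in scaling, at 1.42. Fosl1, a partner in AP-1, was 2.44-fold higher in COS1NR and 2.68-fold lower in MFH1NR, the latter under 2-fold without scaling, at -0.67 in log2, and with spike-in scaling, at -0.90.

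By the distance between pairs of log2 ratios to MSCs, over 3 arrays and 7927 genes measured on all of them, the genes nearest to Pdgfa, the ligand of widest range among those well above background on all arrays, were Lyn, Bgn and Gli2, at distances of 0.26, 0.33 and 0.37. Those nearest to Fgfr2 by its brightest probe, the receptor of widest range by the same rule, were Aqp1, Cdc42ep2 and Ncf4, at 0.43, 0.58 and 0.67. With 3 arrays such nearness is a description of 2 ratios.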

How the data were processed

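RNA of MSCs, COS1NR and MFH1NR was measured on 1 Agilent array each. Per the file headers, the authors read each spot's intensity with the software Feature Extraction 10.5.1.1 of Agilent (the submitters' processing notes name 9.1). This is the processed, background-corrected signal, and the arrays differ in scale. The settings of that correction are not given in the sources used here. The deposited series table held the same intensities on 3 of 3 arrays. Of 43379 spots that were not controls, 56.6% to 59.7% were well above background and none was saturated. The number of arrays limits the precision.

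Control spots and 187 to 217 outlier spots per array were left out, spots of a probe were averaged in log2, and a probe counted as well above background if at least as many of its spots were so called as not. Values were scaled to the 75th percentile of the array. Of 40816 probes, 20418 had a RefSeq accession and 16736 were named by the gene table of GRCr8. The array was designed on rn4, and no probe coordinates are given. No test was made. Counts at 2-fold were set beside those of all genes. The members, lists and settings were chosen with earlier results of these data known. Outside the members, up to 6 genes per list were named by the largest difference of at least 2-fold between arrays, and 3 genes nearest to the ligand and to the receptor of widest range among members above background on all arrays. Genes named as exceptions or markers are given besides.

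Alternatives were other scalings (none, median, quantile, 7 spike-in probes), the series table, other probes of a gene, other filters on dim probes, a 3-fold threshold and outlier spots kept. Added after the data were seen were normexp on the median signal with an offset of 50, in place of a planned one on the mean signal, which was not used here, and a floor at the highest background limit. The counting step was tested on simulated data. Python 3.11.15, numpy 2.4.6, pandas 2.3.3, R 4.3.3 and limma 3.58.1 were used.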

Additional observations from a re-analysis of the deposited data

Results flagged for a closer look

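Fosl1 moved in opposite directions in the sarcoma lines relative to the same MSC array, being higher in COS1NR (log2 ratio 1.29) and lower in MFH1NR (log2 ratio -1.42). The difference was not tested, since each line had 1 array. In MFH1NR it was under 2-fold without scaling, at -0.67, and with spike-in scaling, at -0.90.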

How the results depend on the processing

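The 25 log2 ratios of members with a value or bound were computed under 12 alternatives, which gave 291 values. No value was left for Hgf without scaling, for Met between the lines with spike-in scaling, or for the bounds of Fgf7, Hgf and Met where both arrays had to be above background. The 1 ratio of at least 2-fold that turned was that of Fgfr2 in COS1NR to MSCs, which became 0.76 with the second probe, where that in MFH1NR became -0.00. The genes at least 2-fold lower than in MSCs numbered 6 to 8 in COS1NR and 4 to 6 in MFH1NR, and the lower genes of MFH1NR against COS1NR 2 to 3. Without scaling, 1 gene (Met) exceeded MSCs by 2-fold or more in COS1NR, against 32.5% of all genes. It likewise did so with no filter on dim probes, against 18.6%. With no filter, 1 gene (Met) was higher in MFH1NR than in MSCs, against 17.3% of all genes. Hgf then had log2 ratios of -2.37 and -2.72. The values with no filter rest on signals not well above background. At 3-fold, 1 gene (Pdgfra) was higher in MFH1NR than in COS1NR, against 7.31% of all genes. Without scaling, the median of all genes moved to 0.52 in COS1NR and 0.79 in MFH1NR relative to MSCs and to 0.27 between the lines. With spike-in scaling it was -0.16, 0.55 and 0.71. The cause of these moves was not tested. No paired analysis was possible because each group had 1 array. Hgf and Met lie near or below the background limit, where the array allows bounds only.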
